A study of Mus musculus with 45 samples.

Results

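The genes described here are 10 of the 24422 gene symbols counted in mouse uterus, and they carry zinc across membranes or bind it inside the cell. They were Slc39a4, Slc39a1, Slc39a7, Slc39a8 and Slc39a14, which encode zinc importers of the ZIP family, Slc30a1, Slc30a2 and Slc30a7, which encode exporters of the ZnT family, and the metallothionein genes Mt1 and Mt2. They were chosen by symbol, after their levels in the 6 groups of tissue and genotype had been seen, and with no threshold on a value. Uteri came from sexually mature CD-1 females, an outbred stock, that were wildtype (WT) or carried the knockout of Plag1, a zinc finger transcription factor gene (Plag1KO, here KO). Every female, WT or KO, had been superovulated with 5 IU pregnant mare serum and 2 days later 5 IU hCG, and was killed on the following day, so no uterus was in a natural cycle. Per the study's methods, superovulated females were mated with WT males, except those that gave MII oocytes. The labels do not say which of the females used here had been mated. From each mouse an intact piece of uterine horn, the scraped endometrium and the myometrium that remained were sequenced, which gave 6 groups of 7 mice. The labels give no age and no detail of the knockout allele.

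Zinc enters the cytosol through ZIP proteins, from outside the cell or from its organelles, and ZnT proteins carry it the other way. Metallothioneins are small cysteine-rich proteins that bind zinc and copper, and their genes are switched on by the zinc-sensing factor MTF1, which binds short metal response elements in their promoters. In epithelia, ZIP4, the product of Slc39a4, is best known as the zinc importer of the gut surface.

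In the annotation of NCBIM37, the build known as mm9 on which the authors aligned, Mt2 (chr8:96696518-96697467) and Mt1 (chr8:96702989-96704225) lie on the forward strand of chromosome 8, with 5521 bases from the end of Mt2 to the start of Mt1. Mt3 (chr8:96676507-96678048), a metallothionein best known from brain, lies upstream of both on the same strand. The annotation gives Mt1 a pair of transcript starts, 122 bases apart. The core of the metal response element was searched as TGCACNC and TGCGCNC on both strands in the 250 bases before each of 45975 protein-coding transcript starts. It was found 5 times before the downstream start of Mt1, 3 times before Mt2 and 1 time before the upstream start of Mt1. Of all starts, 25% held at least 1 match, 6.53% at least 2, 1.68% at least 3 and 0.374% at least 4. No match was found before any start of Slc39a4, Slc39a1, Slc39a14, Slc30a7 or Mt3, and the starts of Slc39a7, Slc39a8, Slc30a1 and Slc30a2 had at most 2. The stretches before Mt1 and Mt2 are shown because these are the members with most matches, with the matched letters in capitals on the forward strand. They are the 150 bases before the upstream start of Mt1 (chr8:96702839-96702988), 30 bases between its starts (chr8:96702989-96703018) and the 150 bases before Mt2 (chr8:96696368-96696517).
Mt1 upstream: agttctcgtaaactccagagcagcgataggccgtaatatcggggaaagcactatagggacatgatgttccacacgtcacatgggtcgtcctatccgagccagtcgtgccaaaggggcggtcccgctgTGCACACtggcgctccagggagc
Mt1 between starts: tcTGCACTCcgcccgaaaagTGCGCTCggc
Mt2 upstream: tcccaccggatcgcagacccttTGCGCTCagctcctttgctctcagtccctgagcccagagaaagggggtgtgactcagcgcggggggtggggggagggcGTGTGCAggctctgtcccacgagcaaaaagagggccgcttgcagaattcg
The match before Mt1 began 23 bases before the upstream start. Of 4 matches between the starts, the 2 in the stretch shown began 120 and 102 bases before the downstream start. Of the 3 before Mt2, the 2 in the stretch shown began 128 bases before its start and, on the reverse strand, 50 bases before it. A match is a description of letters and not evidence of binding.

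The importers lie apart from each other, Slc39a1 at chr3:90052094-90057534, Slc39a8 at chr3:135488243-135551536, Slc39a14 at chr14:70703274-70751232, Slc39a4 at chr15:76442815-76447322 and Slc39a7 at chr17:34165212-34168635. The exporters are Slc30a1 at chr1:193730646-193737126, Slc30a7 at chr3:115641891-115710324 and Slc30a2 at chr4:133899096-133910399. The annotation places 1700034H15Rik on the opposite strand of Slc30a1, the microRNA gene Mir669n opposite Slc30a7 and Gm20427 on the same strand as Slc39a7, so reads there could be shared. Of the other zinc genes named, Slc39a2 has Mettl17 on its own strand, and Slc39a11 has genes opposite it, among them Cog1 and Sstr2. In a search of the genome with 100 bases from each annotated start of the members, 0 copies with at least 95% identity over 95 bases were found elsewhere.

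The 45 libraries held 256298 to 1222627 gene counts each, and repeat libraries of a mouse were summed, so that each group held 7 values. A floor of 3 counts was 1.23 to 11.7 CPM (counts scaled to the same total of gene counts in every sample). Plag1 was all but undetected, with 2 counts in all over 22 WT libraries and 5 over 23 KO libraries, so it does not check the genotype labels. Layers were checked by marker genes. Cdh1, Epcam, Krt8 and Krt18, genes of epithelium, summed to 708 to 2284 CPM in WT endometrium and 60.4 to 576 in WT myometrium, and to 1022 to 1981 and 52.3 to 433 CPM in KO. Myh11, Cnn1, Acta2 and Des, genes of smooth muscle, summed to 333 to 7359 CPM in WT endometrium and 8099 to 25042 in WT myometrium, and to 187 to 8082 and 12465 to 21059 CPM in KO. The endometrium of KO mouse 13 had the 8082 CPM, against a group median of 581, and that of WT mouse 3 had the 7359 CPM, against a median of 1411, and the lowest epithelial sum of its group, 708 CPM. The endometrium of WT mouse 8 had 6120 CPM of Ovgp1, an oviduct secretory gene, against a group median of 72.1.

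Of the 10 genes, 9 passed the filter for testing in all 3 tissues, and their levels spread widely within groups. Slc39a4, Slc39a7, Mt1 and Mt2 were above 3 counts in 42 of 42 samples, Slc39a1 in 41 and Slc39a8 in 38. Slc30a7 was above it in 33, Slc30a1 in 23 and Slc39a14 in 18, so differences in these last 3 genes were hard to detect at this depth. Slc30a2, an exporter known from secretory epithelia such as the mammary gland, had at most 2 counts in a sample and 0 counts in 32 of 42, and it was not tested.

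Scraped endometrium was compared with the myometrium that remained in each genotype. Pdgfra, Dcn, Col1a1 and Lum, genes of stroma, summed to a median of 1439 CPM in WT endometrium and 4025 CPM in WT myometrium. In KO the medians were 1548 and 6132 CPM. The comparison is thus of a scraping with the tissue left after it, and not of cleanly separated layers. Slc39a4, Slc39a8, Slc39a7, Mt2 and Mt1 were higher in endometrium in WT mice and again in KO mice, and 0 members were lower. Of all genes tested, 13.2% passed the test in WT (6.81% higher in endometrium) and 19.3% in KO (10.6% higher in endometrium). Of the 9 members tested, 5 were higher in each genotype. The members had been chosen by symbol with their layer values known, so these counts are a description. The median log2 fold change of the 9 members was 0.86 in WT and 0.95 in KO, beside 0.01 and 0.08 over all genes tested. The WT count was 5 without WT mouse 3. It was 3 without WT mouse 8, where Slc39a7 and Mt1 no longer passed, and the KO count was 4 without KO mouse 13, where Slc39a7 no longer passed. With library sizes set by the spike-ins, 953 genes were higher and 464 lower in WT endometrium (901 and 845 with TMM factors) and 2630 higher and 419 lower in KO (1378 and 1130 with TMM factors). The median of all genes then stood at 0.21 in WT and 0.58 in KO, and relative to it the 5 members were higher by 0.84 to 3.10 and by 0.78 to 2.73 on the log2 scale. In a bulk sample, fewer cells of a type and less RNA per cell cannot be told apart.

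Slc39a4 had the steepest layer difference of the members. Its level in WT endometrium was lowest at 216 CPM, with a median of 502 and a highest value of 991 (mean 487 ± 263, SD, n = 7). In WT myometrium it was 23.3 CPM at the lowest, 38.8 at the median and 99.5 at the highest (mean 47.1 ± 27.1). Every WT endometrium thus lay above every WT myometrium. The KO values were 93.4, 238 and 620 CPM in endometrium (mean 317 ± 199) and 20.5, 30.5 and 76.8 CPM in myometrium (mean 41.2 ± 20.8), and again the layers did not overlap. Such separation in that direction was seen in 1.73% of genes tested in WT and 3.22% in KO. The log2 fold change of Slc39a4 was 3.17 ± 0.34 (SE) in WT, edgeR adjusted p = 1.22e-06, and 2.83 ± 0.36 in KO, edgeR adjusted p = 6.02e-06. The intact horn, which holds both layers, lay in between, at 221 ± 90.2 CPM in WT and 129 ± 41.9 in KO. The lowest KO endometrium was that of mouse 13, the sample with most smooth muscle transcript in its group (8082 CPM). The lowest WT endometrium was that of mouse 7, the sample with least in its group (333 CPM). The part of muscle transcript in these values was not tested.

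Slc39a8 encodes ZIP8, an importer of zinc that also carries manganese, and it showed the next largest layer difference. In WT it was 23.2, 35.7 and 90.0 CPM (lowest, median and highest) in endometrium and 2.33, 8.63 and 15.0 CPM in myometrium, with no overlap. In KO it was 6.36, 59.1 and 144 CPM in endometrium and 4.93, 9.68 and 41.99 CPM in myometrium. The myometrium values rested on 2 to 8 counts a sample in WT and on 3 to 22 in KO. In each genotype 2 of 7 myometria were at or under 3 counts, and the 6.36 CPM in KO endometrium was 4 counts. The KO ranges overlapped, with the endometrium of mouse 14 at 6.36 CPM and the myometrium of mouse 4 at 41.99 CPM, and mouse 14 also had the lowest myometrium. Horns averaged 39.4 ± 21.3 CPM in WT and 30.8 ± 10.9 CPM in KO. The log2 fold change was 2.39 ± 0.40 in WT, edgeR adjusted p = 0.000169, and 1.84 ± 0.43 in KO, edgeR adjusted p = 0.00373.

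Slc39a7 encodes ZIP7, which releases zinc from the endoplasmic reticulum. Its levels in WT were 39.9, 61.7 and 117 CPM in endometrium and 24.0, 35.4 and 43.1 CPM in myometrium. In KO they were 41.4, 65.4 and 128 CPM in endometrium and 16.1, 39.5 and 50.6 CPM in myometrium. Horns ranged from 30.9 to 54.0 CPM in WT and from 13.7 to 58.1 CPM in KO. The layers overlapped in both genotypes, from 39.9 to 43.1 CPM in WT and from 41.4 to 50.6 CPM in KO. The log2 fold change was 0.95 ± 0.26 in WT, edgeR adjusted p = 0.0127, and 0.87 ± 0.26 in KO, edgeR adjusted p = 0.0186. The WT call was lost without WT mouse 8 (adjusted p = 0.0562), and the KO call without KO mouse 4, 13 or 14 (adjusted p = 0.0530, 0.0589 and 0.0506).

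Slc39a1, which encodes the widely expressed importer ZIP1, was not called in either genotype. It was at 14.2, 34.9 and 101 CPM in WT endometrium and 15.0, 30.3 and 73.9 CPM in WT myometrium. In KO it was at 17.1, 50.2 and 118 CPM in endometrium and 13.2, 23.5 and 45.8 CPM in myometrium. The log2 fold change was 0.21 ± 0.37 in WT, edgeR adjusted p = 0.798, and 0.95 ± 0.38 in KO, edgeR adjusted p = 0.0833. The KO difference passed without KO mouse 4 or 6 (adjusted p = 0.0490 and 0.0413) and with spike-in scaling (adjusted p = 0.0108). Its endometrium values ran over a wide range in both genotypes, and 4 of 7 WT and 5 of 7 KO mice were higher in endometrium.

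**Figure D1:**
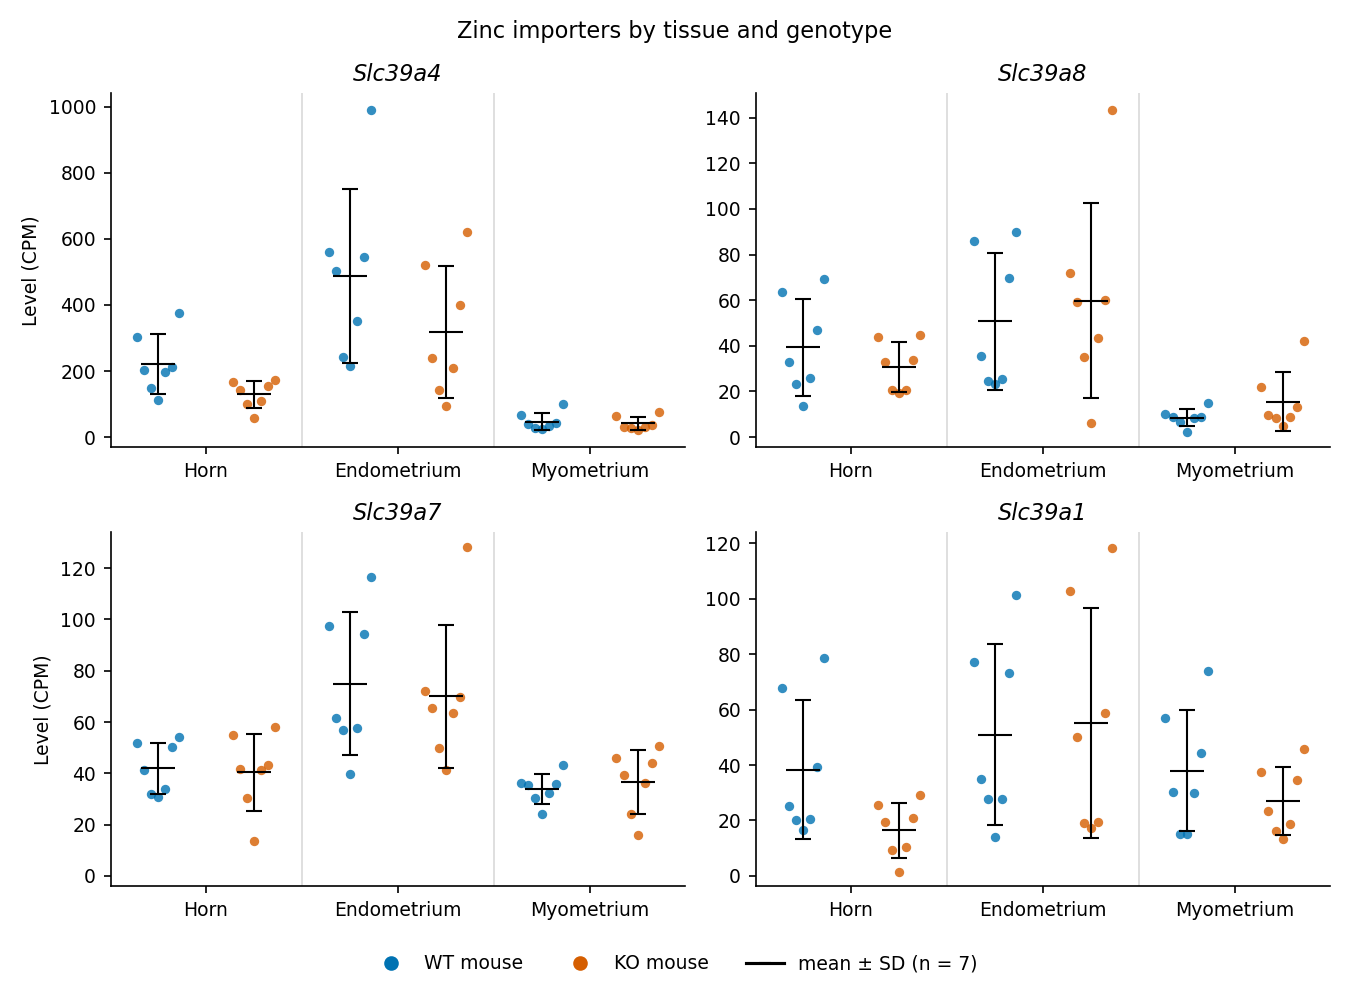
Level in CPM (y axis) of 4 zinc importers in horn, endometrium and myometrium (x axis), a point for each of 7 WT (blue) and 7 KO (orange) mice, with black bars at the mean ± SD. Slc39a4 in endometrium lies above all myometrium values of its genotype, while Slc39a1 overlaps between layers.

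The metallothioneins were higher in endometrium, with a ratio of mean CPM of 1.98 in WT and 2.26 in KO for Mt1 and of 2.43 and 2.77 for Mt2. Mt1 was at 1172, 1397 and 2634 CPM in WT endometrium and 505, 748 and 1226 CPM in WT myometrium. In KO it was at 848, 1791 and 3283 CPM in endometrium and 611, 700 and 1329 CPM in myometrium. Mt1 thus overlapped between layers over the whole group, although it was higher in endometrium in 7 of 7 mice of each genotype. Its log2 fold change was 0.86 ± 0.26 in WT, edgeR adjusted p = 0.0277, and 1.16 ± 0.27 in KO, edgeR adjusted p = 0.00303. The WT call was the weakest of the 5: it was lost without WT mouse 7, 8, 10 or 12 (adjusted p = 0.0837, 0.0513, 0.0683 and 0.0970), and with spike-in scaling (adjusted p = 0.0658).

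Mt2 was at 828, 1593 and 2781 CPM in WT endometrium and 344, 709 and 1012 CPM in WT myometrium. In KO it was at 694, 1406 and 2862 CPM in endometrium and 330.5, 582 and 870 CPM in myometrium. The ranges overlapped, and 7 of 7 mice of each genotype were higher in endometrium. Its log2 fold change was 1.13 ± 0.28 in WT, edgeR adjusted p = 0.00658, and 1.399 ± 0.258 in KO, edgeR adjusted p = 0.000382. In horns, Mt1 averaged 1371 ± 237 CPM in WT and 1474 ± 364 in KO, and Mt2 averaged 1474 ± 630 and 1112 ± 404 CPM.

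**Figure D2:**
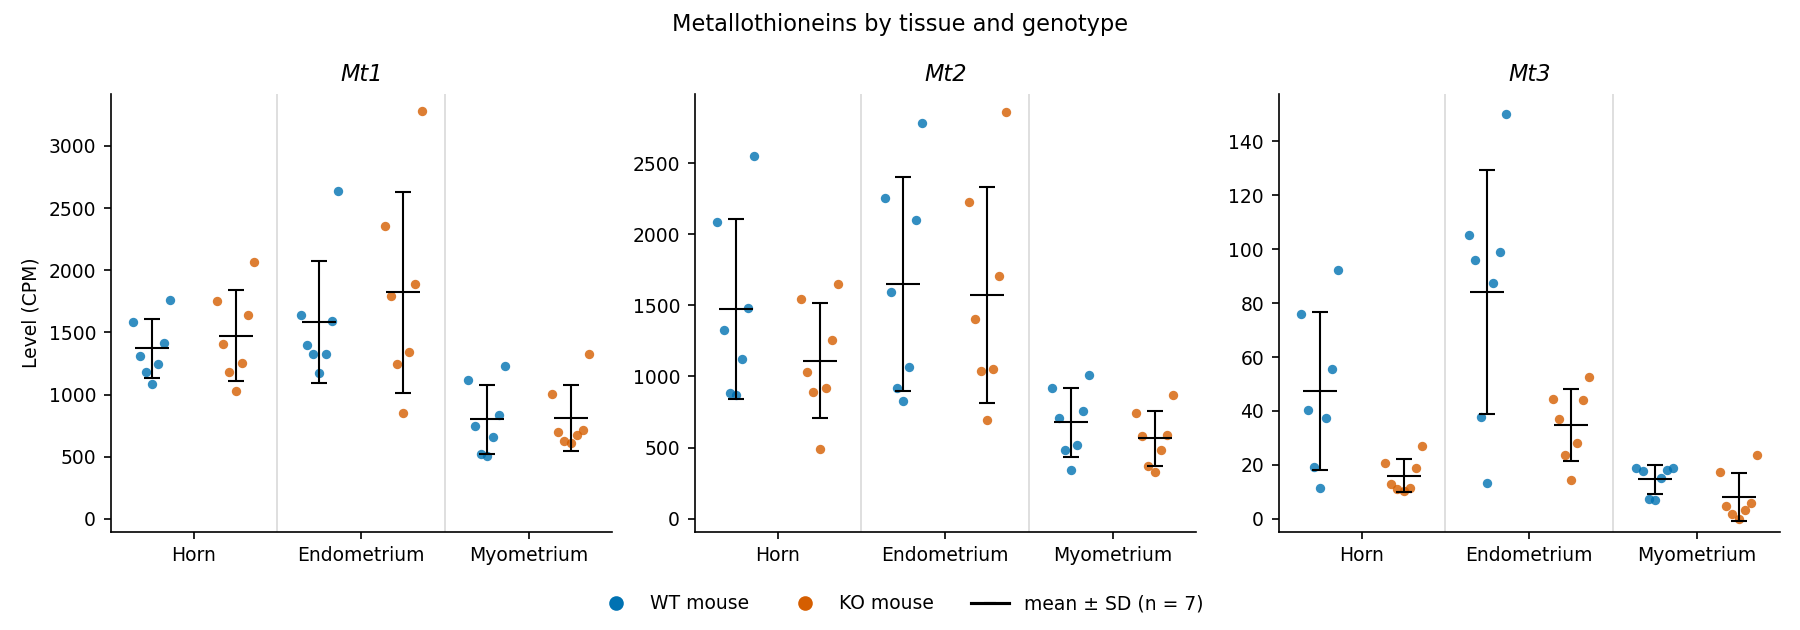
Level in CPM (y axis) of Mt1, Mt2 and Mt3 in horn, endometrium and myometrium (x axis), a point for each of 7 WT (blue) and 7 KO (orange) mice, with black bars at the mean ± SD. The layers of Mt1 and Mt2 overlap, with myometrium lowest on average, and the Mt3 means are lower in KO in each tissue, a difference that did not pass adjustment.

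Within single mice the layer difference ran in the same direction for all 5 called members. They were called on these same samples, so this is a description and not further evidence. The share of all genes with every mouse in the same direction is not given here. On the log2(CPM + 1) scale, endometrium minus myometrium was 2.48 to 4.49 in WT mice and 1.61 to 3.73 in KO mice for Slc39a4. It was 1.23 to 4.41 and 0.04 to 3.90 for Slc39a8, and 0.39 to 1.93 and 0.60 to 1.58 for Slc39a7. It was 0.19 to 1.65 and 0.47 to 1.92 for Mt1, and 0.37 to 1.88 and 0.27 to 2.30 for Mt2. The epithelial markers moved with the layer as well, 4 of 4 higher in endometrium in each genotype (log2 fold change 2.36 to 2.79 in WT and 2.68 to 3.18 in KO), and 4 of 4 smooth muscle markers were lower. Of 4 stromal markers (Pdgfra, Dcn, Col1a1 and Lum) 3 were lower in each genotype, down to -3.23 in WT and -4.23 in KO. Foxa2, a gene of uterine glands, was higher by 2.94 and 3.91, and Ovgp1 by 6.09 and 2.62. Foxa2 was near the floor, with a median of 5.15 CPM in WT endometrium and 1.59 CPM in KO endometrium. It was at 0 CPM in every KO myometrium. The WT value of Ovgp1 included the 6120 CPM of WT mouse 8, against a group median of 72.1. Of 3 mesothelial markers 0 were called in WT and 2 were lower in KO, and of 5 leukocyte markers 1 was lower in WT and 1 higher in KO. The part of these cell types in the member differences was not tested.

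**Figure D3:**
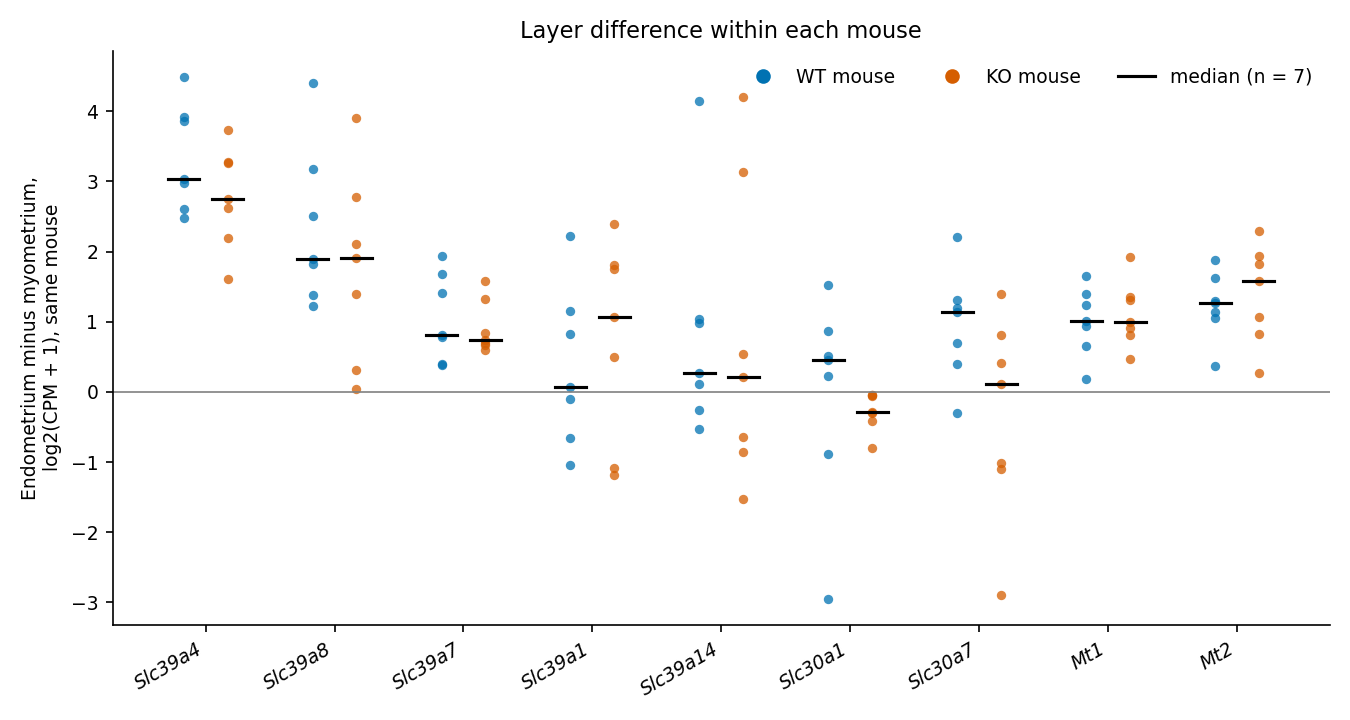
Difference of log2(CPM + 1) between endometrium and myometrium of the same mouse (y axis) for the 9 members tested (x axis), a point for each WT (blue) or KO (orange) mouse, with black bars at the median of 7. All points of Slc39a4, Slc39a8, Slc39a7, Mt1 and Mt2 lie above 0, and those of the other 4 members spread to both sides in WT.

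The remaining members were near the floor of counting. Slc39a14, which encodes ZIP14, an importer of zinc and iron, was at 2.68 to 16.7 CPM in WT endometrium and 0 to 6.25 CPM in WT myometrium. Slc30a1, which encodes ZnT1, the exporter of the plasma membrane, was at 1.29 to 23.3 and 2.00 to 16.7 CPM in the same groups. Slc30a7, which encodes ZnT7 of the Golgi, was at 6.67 to 23.2 and 3.45 to 14.6 CPM. In KO endometrium and myometrium, Slc39a14 was at 0 to 17.4 and 0 to 11.5 CPM, Slc30a1 at 2.18 to 12.3 and 3.23 to 15.3 CPM, and Slc30a7 at 0 to 13.5 and 3.73 to 19.2 CPM. In horns of WT and KO mice, Slc39a14 was at 0 to 4.91 and 0 to 8.31 CPM, Slc30a1 at 2.06 to 15.05 and 2.08 to 10.3 CPM, and Slc30a7 at 4.11 to 14.8 and 4.59 to 10.1 CPM. All groups of these 3 genes overlapped. Their log2 fold changes between layers were 0.62 ± 0.52, -0.46 ± 0.57 and 0.84 ± 0.40 in WT and 0.57 ± 0.66, -0.19 ± 0.45 and -0.12 ± 0.45 in KO, for Slc39a14, Slc30a1 and Slc30a7 in that order. None of these passed the edgeR test (lowest adjusted p = 0.192, Slc30a7 in WT). The KO endometrium was below the KO myometrium of the same mouse in 7 of 7 mice for Slc30a1, by 0.04 to 0.80 on the log2(CPM + 1) scale, which is within a few counts.

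Ordered by mean level, the WT endometrium was highest and the KO myometrium lowest for Slc39a4, with both horn groups in between. Neighbouring groups in that order overlapped in range for Slc39a4, Slc39a1, Slc39a7, Slc39a8, Mt1 and Mt2. KO endometrium was the highest group on average for Slc39a1, Slc39a8 and Mt1, and WT endometrium for Slc39a7 and Mt2.

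The comparison of KO with WT in each tissue asked whether the maternal tract differed between genotypes in these genes. With edgeR 0 of 9 members passed in horns, 0 in endometrium and 0 in myometrium, beside 0% of all genes in each tissue. DESeq2 gave 0 members in each tissue as well. At an unadjusted p under 0.05 there were 2 members in horns, where 5.64% of all genes stood at that level, 0 in endometrium (5.2% of genes) and 0 in myometrium (4.22% of genes). A miss of the threshold does not show that the genotypes were alike.

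The horn members at that level were Slc39a4 and Slc39a1. Slc39a4 was at 111, 203 and 374.5 CPM in WT horns and 56.6, 141 and 172 CPM in KO horns, and the ranges overlapped. Its log2 fold change was -0.71 ± 0.26 (95% interval -1.24 to -0.18), edgeR adjusted p = 0.683. In endometrium the value was -0.51 ± 0.34 and in myometrium -0.15 ± 0.33. Slc39a1 was at 16.5, 25.4 and 78.5 CPM in WT horns and 1.29, 19.3 and 29.1 CPM in KO horns. Its log2 fold change was -1.13 ± 0.42 (95% interval -1.999 to -0.27), edgeR adjusted p = 0.713, and the lowest value, 1.29 CPM in KO mouse 13, rested on 1 count. In endometrium the value of Slc39a1 was 0.26 ± 0.42 and in myometrium -0.46 ± 0.32. For the metallothioneins the 95% intervals were -0.22 to 0.59 for Mt1 in horns, -0.28 to 0.88 in endometrium and -0.43 to 0.46 in myometrium. For Mt2 they were -0.86 to 0.23, -0.59 to 0.62 and -0.69 to 0.21. Mice 1 to 8 and mice 9 to 14 carried different position codes in the labels (5 WT and 3 KO against 2 WT and 4 KO), and with that as a covariate the count of members called was 0 in each tissue.

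**Figure D4:**
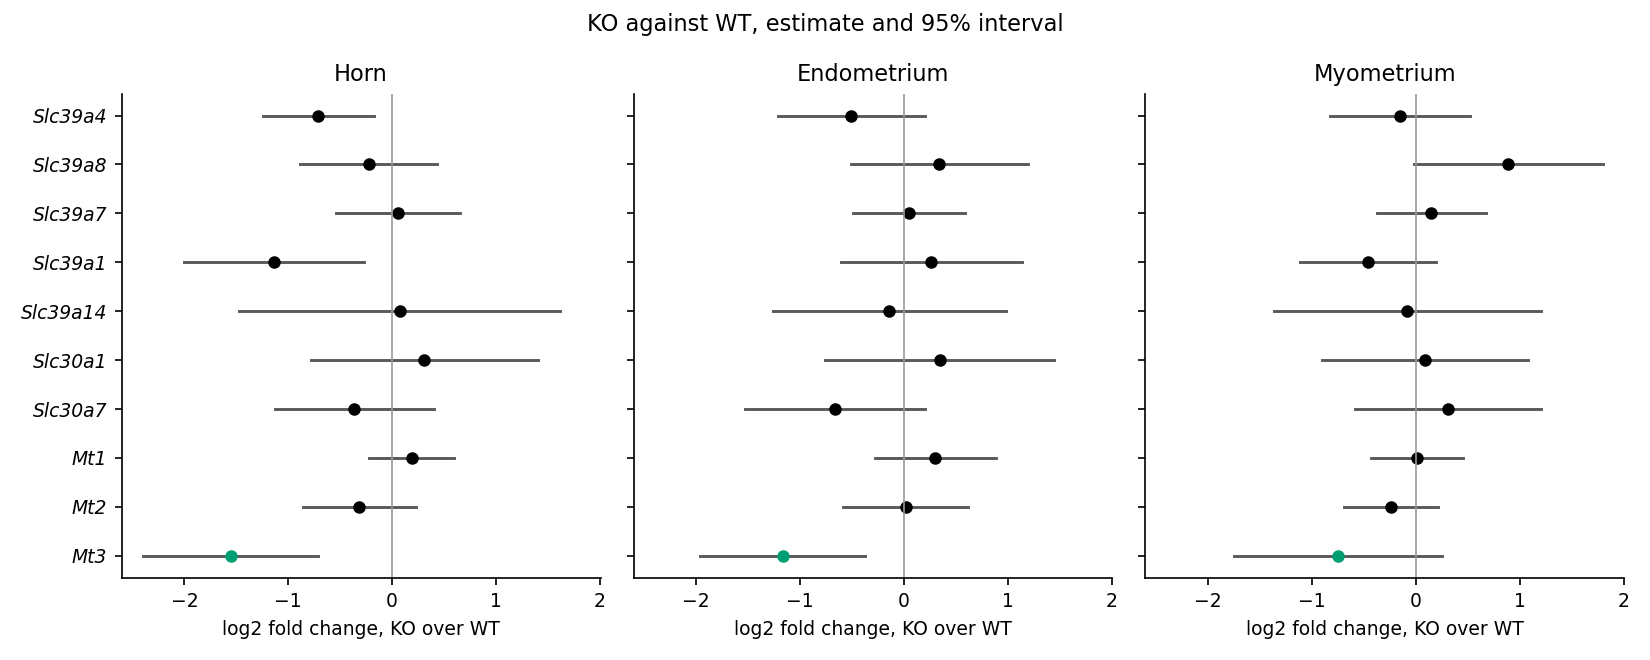
Log2 fold change of KO over WT (x axis) with its 95% interval from the edgeR fit for the 9 members and Mt3 (y axis) in horn, endometrium and myometrium; the point is the estimate, green for Mt3, which is not among the 10 genes. The intervals of Slc39a4 and Slc39a1 in horn and of Mt3 in horn and endometrium do not reach 0 before adjustment over all genes.

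Whether the layer difference itself depended on genotype was asked with an interaction term over the 4 groups of endometrium and myometrium. With edgeR 0 of 9 members passed, beside 0% of all genes, and 0 members had an unadjusted p under 0.05 (4.6% of genes did). DESeq2 also gave 0. The estimates ran from -0.96 for Slc30a7 to 0.75 ± 0.56 for Slc39a1 on the log2 scale.

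Of 19 other zinc genes, the rest of the ZIP and ZnT families, Mt3, Mt4 and Mtf1, 13 were tested between layers. In WT 4 were higher in endometrium and 0 lower, and in KO 3 were higher and 0 lower, beside the 6.81% and 10.6% of all genes. Slc30a4 was called lower in WT without WT mouse 5, and Slc39a12, with at most 3 counts in a sample, was called lower in KO with no filter on low counts and with all 6 groups in a single fit. Mt3 rose by 2.47 ± 0.40 on the log2 scale in WT, edgeR adjusted p = 0.000104, and by 2.06 ± 0.46 in KO, edgeR adjusted p = 0.00234. Its myometrium values rested on 6 to 11 counts a sample in WT and on 0 to 12 in KO. In KO 5 of 7 myometria were at or under 3 counts. Slc39a2, which encodes the importer ZIP2, rose by 3.16 ± 0.81 in WT, edgeR adjusted p = 0.00854, and by 3.01 ± 0.79 in KO, edgeR adjusted p = 0.00841. Slc39a11, which encodes ZIP11, rose by 1.70 ± 0.46 and 1.46 ± 0.38, edgeR adjusted p = 0.0130 and 0.00732. The myometrium values of Slc39a11 rested on 1 to 7 counts a sample in WT and on 2 to 6 in KO. Slc39a3, which encodes ZIP3, rose by 1.72 ± 0.46 in WT, edgeR adjusted p = 0.0124, and its value in KO was 0.25 ± 0.35, edgeR adjusted p = 0.684. The WT call of Slc39a3 was lost without WT mouse 10 (log2 fold change 1.17, adjusted p = 0.102), and the KO value was -0.23 without KO mouse 13. The interaction estimate for Slc39a3 was -1.47 ± 0.60, edgeR adjusted p = 0.993. Between genotypes, Slc39a3 in myometrium was at 4.00, 6.91 and 9.32 CPM in WT and 10.97, 13.0 and 16.45 CPM in KO. The genotypes did not overlap there, with every KO value above every WT value. That was so for 3 of 12991 genes tested in that tissue (0.0231%). Among so many genes a few can separate in this way by chance, so the separation is not evidence of a genotype difference. These myometrium values rested on 2 to 10 counts a sample. The log2 fold change of KO over WT was 0.97 ± 0.37 in myometrium (95% interval 0.22 to 1.72), edgeR adjusted p = 0.9999, and did not pass. It was -0.38 ± 0.44 in horns and -0.51 ± 0.46 in endometrium. Mtf1 was at 0.91 ± 0.49 in WT and -0.13 ± 0.47 in KO and was not called. Slc39a5, Slc30a8, Slc30a10 and Mt4 had 0 counts in 42 of 42 samples.

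Slc39a2 was unevenly spread over mice. It was at 1.62, 8.27 and 109 CPM in WT endometrium and 4.18, 27.0 and 104 CPM in KO endometrium, and at 0.82, 8.46 and 91.4 CPM in WT horns and 3.67, 11.2 and 85.9 CPM in KO horns. In myometrium it was at 0, 2.21 and 7.51 CPM in WT and 0, 0 and 18.8 CPM in KO. There 5 of 7 WT and 6 of 7 KO values were at or under 3 counts, so its layer rises rest on myometrium values at the floor. The highest values in horn and endometrium came from WT mouse 12 in WT and from KO mouse 6 in KO. Without WT mouse 12 the WT layer call was lost (log2 fold change 2.22, edgeR adjusted p = 0.106).

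Mt3 was also compared between genotypes. In horns it was at 11.3, 40.2 and 92.4 CPM in WT and 10.3, 12.9 and 27.0 CPM in KO, and in endometrium at 13.3, 95.9 and 150 CPM in WT and 14.3, 37.1 and 52.4 CPM in KO. The low WT values were those of mice 5 and 10 in both tissues. The log2 fold change was -1.55 ± 0.41 in horns (edgeR adjusted p = 0.567), -1.17 ± 0.38 in endometrium (adjusted p = 0.855) and -0.75 ± 0.49 in myometrium. It did not pass in any tissue. The 3 values come from the same mice.

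Mt1 and Mt2 were then followed together across the 14 mice, as neighbours that are known to respond to metals together. In horns the correlation of log2(CPM + 1) was r = 0.612 (permutation p = 0.0197, 0.0590 adjusted over the 3 tissues) and rho = 0.626 (p = 0.0194, 0.0581 adjusted). In endometrium it was r = 0.186 (permutation p = 0.527, adjusted 0.527) and rho = 0.248 (p = 0.393), and in myometrium r = 0.460 (permutation p = 0.0985, adjusted 0.148) and rho = 0.490 (p = 0.0782). Without the 2 mice farthest from the Mt1 median, r was 0.599, 0.00075 and 0.285 in that order. Within WT, r was 0.730, 0.416 and 0.343, and within KO 0.721, 0.0761 and 0.667. Within the position codes of mice 1 to 8, r was 0.449, 0.623 and 0.659, and within those of mice 9 to 14 it was 0.814, -0.379 and 0.0212. No relation passed adjustment as computed here. That in horns passed with values centred on the genotype mean (r = 0.713, adjusted permutation p = 0.0143), with spike-in library sizes (r = 0.711, adjusted permutation p = 0.0129), without WT mouse 5 (r = 0.715, adjusted permutation p = 0.0176) and without KO mouse 6 (r = 0.661, adjusted permutation p = 0.0434). That in myometrium passed with spike-in library sizes (r = 0.673, adjusted permutation p = 0.0129), and r in endometrium was 0.516 without KO mouse 11. With spike-in library sizes r in endometrium was 0.526 (adjusted permutation p = 0.0537). That setting divides both genes by the same spike-in total. Differences between samples in gene counts relative to spike-ins then enter both genes, so it cannot show a relation particular to this pair.

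The ratio of Mt2 to Mt1 counts is given as a description, chosen after its values were seen. KO mouse 6 had ratios of 0.393, 0.516 and 0.492 in horn, endometrium and myometrium, and WT mouse 12 had 1.45, 1.69 and 1.45. A low ratio in KO mouse 6 and a high ratio in WT mouse 12 were thus seen in all 3 samples of the mouse. KO mouse 11 stood apart in endometrium, at 3.38 against 0.516 to 0.836 in the other KO mice, while its horn and myometrium were at 0.892 and 0.953. The log2 ratio ran over 1.92 between the tissues of KO mouse 11, over 1.101 in WT mouse 5 and over 0.96 in WT mouse 10, and over 0.12 to 0.63 in the other 11 mice. No test was run on the ratio.

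**Figure D5:**
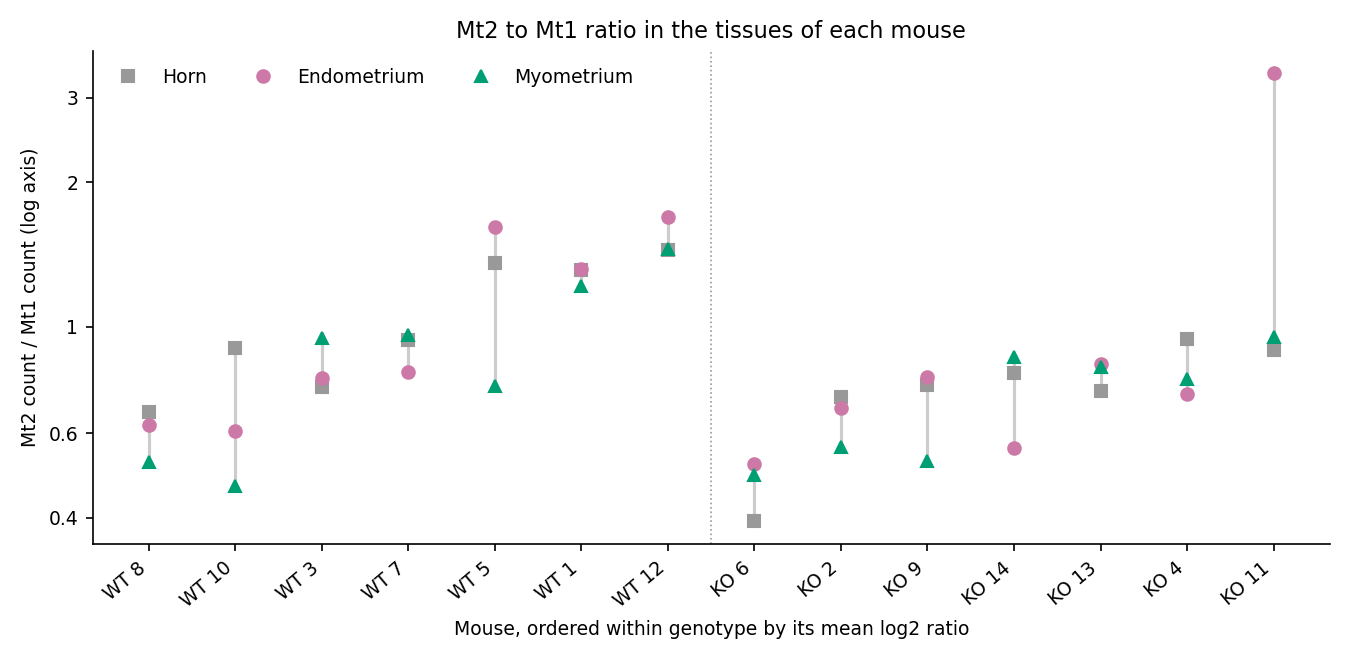
Ratio of Mt2 to Mt1 counts (y axis, log scale) in horn (squares), endometrium (circles) and myometrium (triangles) of each mouse (x axis, ordered within genotype by mean log2 ratio); grey lines join the tissues of a mouse. The tissues lie far apart in KO mouse 11, with endometrium at 3.38, and in WT mice 5 and 10.

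The genes whose levels ran most like those of Slc39a4 over the 42 samples, among 6696 genes, were Cldn3, which encodes a tight junction protein of epithelia (r = 0.905), Tmem176a (r = 0.895) and Dgat2, an enzyme of triglyceride synthesis (r = 0.881). For Mt1 they were Tmem59 (r = 0.834), Pax8, a transcription factor gene of the reproductive tract epithelium (r = 0.811), and Pcbd1 (r = 0.802). Mt2 was 94th in likeness to Mt1, at r = 0.693. The 42 samples are 3 tissues of 14 mice and share the layer difference, so these are descriptions with no test.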

How the data were processed

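STRT RNA-seq, which captures the 5′ ends of transcripts and marks each molecule with a unique molecular identifier, was run as a single pool with ERCC spike-ins. The authors deposited a table of raw counts for 24422 gene symbols and 92 spike-ins in 45 libraries, with no scaling and no filter. Per the study's methods, reads were sorted by barcode, joined by identifier, trimmed, aligned with TopHat to mm9 and counted over UCSC gene models with Homer; the submitters' processing notes name HTSeq. Versions, strand and treatment of reads with several positions are not given in the sources used here. A 5′ count does not scale with transcript length, and levels were not compared between genes, except that the ratio of Mt2 to Mt1 counts was set side by side between samples.

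Groups came from the labels' tissue, genotype and mouse number, and the shared mouse pairs the tissues. Counts of repeat libraries (3 of KO mouse 13 endometrium, 2 of WT mouse 12 myometrium) were summed, as they differed from each other (chi-square per degree of freedom 3.85 to 6.14 and 2.62) by less than libraries of other mice (8.74 to 21.6 and 4.83 to 13.8). Deviations from the group mean correlated by 0.0737 on average between tissues of the same WT mouse and 0.105 of the same KO mouse, beside -0.0125 and -0.0175 between mice. The quasi-likelihood F test of edgeR 4.0.16 (R 4.3.3, TMM factors, no covariate) was run on the whole table, for genes that reached 1 CPM in 5 or more samples entering it, with Benjamini-Hochberg adjustment over all genes tested and a threshold of 0.05. Genotypes were compared within each tissue and layers within each genotype, and an interaction was fitted. The SE was the absolute log2 fold change over the square root of F, and 95% intervals used the degrees of freedom of the fit. The fit was also run on simulated counts, with changes placed only in genes with a mean of at least 10 CPM. It therefore does not bear on genes near the floor, and its outcome is not given here. Correlations used log2(CPM + 1) and 100000 resamples, two-sided.

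The members and the gene lists were chosen with earlier results of these data known. The rule named all 10 members, up to 8 of 19 other zinc genes past the threshold, and 3 genes most like Mt1 and Slc39a4 by Pearson r among genes with a mean of at least 10 CPM. Alternatives were spike-in scaling, factors by relative log expression, DESeq2 1.42.0, no filter, a filter at 10 CPM, the deepest library per mouse, all 6 groups in a single fit, an adjusted p under 0.1, position code as a covariate, mouse as a block, each mouse left out, and KO mouse 13 with WT mouse 8 left out. Sequences were read from NCBIM37 at the starts of GENCODE vM1 transcripts, and copies were sought with blastn 2.17.0. The floor of 3 counts covers counting error only. The 95% intervals of the fold changes come from the fit and include the spread between mice.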

Additional observations from a re-analysis of the deposited data

Results flagged for a closer look

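Of 84 sets of 7 values examined, 8 held a sample far from the others of its group. The cut was one that about 1 in 20 sets of independent, normally spread values would pass. These sets share mice and some rest on few counts, so the 8 cannot be read as an excess. The lowest values were Slc39a1 in the horn of KO mouse 13, at 1.287 CPM against 9.28 to 29.1 in the other 6 mice, Slc39a14 in the myometrium of WT mouse 5, at 0 CPM against 3.45 to 6.25, Slc30a7 in the endometrium of KO mouse 9, at 0 CPM against 6.36 to 13.5, and Slc39a3 in the horn of WT mouse 8, at 2.116 CPM against 7.42 to 14.7. Each of these rested on at most 2 counts. The highest values were Slc30a1 in the horn of WT mouse 1, at 15.05 CPM against 2.06 to 5.15, and Mt1 in the endometrium of WT mouse 10, at 2634 CPM against 1172 to 1643. Without WT mouse 10 the layer difference of Mt1 in WT was 0.74 on the log2 scale, and it no longer passed the edgeR test (adjusted p = 0.0683).

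The ratio of Mt2 to Mt1 counts was 0.3928 in the horn of KO mouse 6, against 0.715 to 0.944 in the other KO horns, and 3.376 in the endometrium of KO mouse 11, against 0.516 to 0.836 in the other KO endometria.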

How the results depend on the processing

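Leaving out 1 mouse gave 3 to 5 members higher in WT endometrium (3 without WT mouse 8, beyond a change of 1.5 times from 5) and 4 to 6 in KO, with 0 lower. The correlation of Mt1 with Mt2 in horns, 0.612, ranged from 0.545 to 0.7153 with a mouse left out, and it passed adjustment without WT mouse 5 or KO mouse 6, with spike-in library sizes (0.7109) and with values centred on the genotype mean (0.7131). That in myometrium passed with spike-in library sizes (0.6733), a setting that divides both genes by the same spike-in total. The correlation ranged from 0.0435 to 0.516 in endometrium and from 0.361 to 0.585 in myometrium with a mouse left out. The cause of these changes was not tested. The KO layer difference of Slc39a3, not called, ranged from -0.2286 without KO mouse 13 to 0.4391 without KO mouse 14. Of the genotype differences, none called, Slc39a1 in endometrium ranged from -0.0514 without KO mouse 2 to 0.457 without WT mouse 1, Slc39a3 in endometrium from -0.912 without KO mouse 13 to 0.155 without WT mouse 10, and Slc39a4 in myometrium from -0.342 without KO mouse 2 to 0.224 without WT mouse 5, and the last stood at 0.0322 with the position code. With mouse as a replicate block the counts were 5 and 5 members and 4 and 3 other zinc genes, and the pairing changed no call. In the KO against WT fits and the interaction, 0 members and 0 other zinc genes were called under every alternative run. Depth limited Slc39a14, Slc30a1, Slc30a7 and Slc30a2.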
